A study of Mus musculus with 9 samples.

Results

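The GFP control group consists of cells picked as retinal ganglion cells from adult male mice of wild-type genotype (WT in the labels) whose eyes received AAV-GFP and whose optic nerve had been crushed 14 days earlier. Its 3 libraries, GFP 1, GFP 2 and GFP 3, are the ones the labels put in that group, and they are 3 of the 9 libraries of the series. The virus was AAV2, 1.5 µL into the vitreous, and coded for green fluorescent protein (GFP), a fluorescent marker; the labels do not name the promoter that drives it. The other 6 libraries received Olig2 or Olig3 in place of GFP and enter no value here. Beads against CD90.2 (the protein Thy1) were used to catch the cells, of which those that fluoresced were collected by micropipette, with lower and upper numbers per library of 10, 15 or 20 in different parts of the labels. Each library is therefore a small pool of cells, and all 3 carry the injury, so nothing in them shows a level without crush. The labels do not say whether the 3 libraries came from separate animals, so the spread between them may be technical. All values below are descriptions of 3 libraries of 1 group, with no contrast to test, and a difference between libraries is called only by its size.

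Retinal ganglion cells are the output neurons of the retina: they take signals from bipolar and amacrine cells and send axons through the optic nerve to the brain. Crushing the nerve cuts these axons, which do not grow back in adult mammals, and many of the cells die over the following weeks. The injury signal travels along the axon through the kinase DLK (Map3k12) to c-Jun and other factors, which switch on both growth-associated and death-associated genes. Müller glia, astrocytes and microglia react to the damage at the same time.

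Libraries GFP 1, 2 and 3 held 5853947, 6979851 and 6310213 counts. Levels are given as CPM, each count divided by its library total and scaled, in the order GFP 1, 2 and 3. A count of 0 allows up to 3 counts, which is 0.512, 0.430 and 0.475 CPM in these libraries. Levels of different genes are compared per length as TPM, the count divided by the summed exon length of the gene and scaled to the library. Where genes are called abundant, leading or low by their CPM, that order also depends on gene length. Because complementary DNA was amplified over 20 cycles without molecular identifiers, such limits and intervals cover counting error only. Genes with at least 1 count numbered 18830, 18673 and 18425. It took 680, 663 and 795 genes to reach 50% of the counts, and the 100 most abundant genes held 30.1, 30.2 and 27.9%. No pair of libraries agreed within counting noise (chi-square per degree of freedom 33.6 for GFP 1 and 2, 39.3 for GFP 1 and 3 and 41.6 for GFP 2 and 3), so each was kept as a library of its own.

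The most abundant transcripts were those of the nuclear RNA Malat1, of rod photoreceptors, of energy metabolism and of mitochondria. Malat1 (chr19:5795690-5802672, mm10), a long noncoding RNA held in the nucleus, had 41408, 26590.5 and 29472 CPM and was highest in GFP 1. Gm37376, a short gene on the opposite strand within Malat1, had 0.966 to 1.01 times the counts of Malat1. Without a stated strand setting of the counting, reads of the pair cannot be told apart, and Gm37376 was left out of the totals per length, of which it would take 15.8 to 23.5%. Eno1, the glycolytic enzyme enolase, had 6544, 7891 and 8104 CPM, and its near-identical pseudogene copies make that level uncertain. The mitochondrial ribosomal RNA mt-Rnr2 had 9626, 5026 and 5077 CPM, with GFP 1 above the other libraries, which lay close together.

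Per length, genes of rods and of energy metabolism were among the 12 highest protein-coding genes of the nuclear genome, with a ubiquitin gene at the top. Ubb, one of the genes for polyubiquitin, reached 19749.9 ± 3085 TPM (mean ± SD, n = 3) and Gnat1, the rod transducin subunit that carries the light signal, 10469.7 ± 3241 TPM. Further down were Prph2 (peripherin of the photoreceptor disc rim, 5905 ± 2279 TPM), the calmodulin gene Calm2 (5822 ± 1709 TPM), Pde6g (inhibitory subunit of the rod phosphodiesterase, 5117 ± 679.9 TPM) and Aldoa (aldolase, 4723 ± 1017 TPM). Below them, still among the 12 highest, were Rom1, Eno1, Mgarp, Ftl1 and Unc119, at 4693 ± 1351, 4604 ± 487, 4429 ± 745, 4251 ± 787 and 4121 ± 795 TPM. Ftl1, a ferritin chain, shares 34.6% of its exons with the gene model Gm10252, so its level is uncertain. With the longest transcript as the length of each gene, Rom1 did not stay among the 12 highest. From Gnat1 down, neighbours in the order given differed by less than the sum of their SDs, so the rank of genes next to each other is not resolved by 3 libraries. No ganglion cell marker was among the 12.

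Rod genes took the largest share of the counts among the cell class lists. The 19 rod genes took 5.48, 8.29 and 6.78% of the counts of GFP 1, 2 and 3 (6.85% ± 1.41, n = 3), with counting intervals no wider than 0.0205 percentage points to each side (Wilson, 95%). All 19 exceeded a mean of 10 CPM, and none was uneven, that is, at least 4 times higher in its highest than in its lowest library. That call held for 9.70% of all 10327 genes with a mean of at least 10 CPM. The transducin and the arrestin were ordered alike: Gnat1 had 7346, 13103 and 8444 CPM and Sag, the rod arrestin that ends the light signal, had 8286, 10547 and 8749.9 CPM. Both were highest in GFP 2, as was Prph2 with 3734, 7778 and 4647 CPM. The transcription factors that define rods were present at lower levels: Nrl, which commits photoreceptor precursors to the rod fate, had 258, 317 and 353 CPM and Nr2e3, which represses cone genes in rods, had 362, 589.6 and 479.7 CPM. Of the 19 rod genes 12 were highest in GFP 2, 6 in GFP 3 and 1 in GFP 1, against 30.2, 39.6 and 30.3% of all genes, and with scaling factors by the trimmed mean of M-values (TMM) the split was 14, 4 and 1.

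Photoreceptor genes are known targets of CRX, a homeodomain factor that binds the letters TAATCC. Promoters were taken from RefSeq on GRCm38.p6, from 250 bases before to 50 after each gene's start, and searched on both strands. The motif was found in 4 of the 12 rod genes with a promoter entry (33.3%), in 3 of 9 cone genes (33.3%) and in 3 of 17 bipolar cell genes (17.6%), against 8.14% of 27025 genes. The promoter of Sag is shown as the rod gene with the most counts among those with a match (chr1:87803430-87803729, plus strand), with the match, here read on the other strand, in capitals:
Sag: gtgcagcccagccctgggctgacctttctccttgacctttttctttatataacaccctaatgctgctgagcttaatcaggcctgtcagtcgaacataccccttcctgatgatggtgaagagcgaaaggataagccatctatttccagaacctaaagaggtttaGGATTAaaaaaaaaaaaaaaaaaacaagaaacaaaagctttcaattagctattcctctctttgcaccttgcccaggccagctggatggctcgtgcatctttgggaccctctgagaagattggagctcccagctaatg
A match describes letters in this window only and shows no binding.

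The level of cone genes was lowest in GFP 3. The 13 cone genes summed to 3602, 4244 and 2928 CPM, and none of the 10 past 10 CPM was uneven (1 with TMM), a count that differs little from the 9.70% of all genes. Opn1sw, the short-wavelength opsin, had 640.3, 482 and 191 CPM and was lowest in GFP 3. Opn1mw, the middle-wavelength opsin, had 62.7, 230.1 and 57.8 CPM and was highest in GFP 2, as were Arr3 (cone arrestin, 71.6, 173 and 65.1 CPM) and Gnat2 (cone transducin, 148, 203 and 61.0 CPM). Of the 10 genes, 8 were highest in GFP 2, 2 in GFP 1 and none in GFP 3, against 30.2, 30.3 and 39.6% of all genes. Across defining markers, the median level per length was 3403 ± 416 TPM for rods and 155 ± 77.1 TPM for cones.

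Ganglion cell markers were present in every library but far below those of rods. The 21 ganglion cell genes took 0.195, 0.0986 and 0.126% of the counts (0.140% ± 0.0500, n = 3), and the median level of their 7 defining markers was 20.7 ± 12.9 TPM. That is below the same medians for bipolar cells (69.1 ± 3.52 TPM) and Müller glia (83.2 ± 54.9 TPM), and close to that for amacrine cells (22.8 ± 9.89 TPM). By share of counts the whole lists stood otherwise: bipolar cell genes took 0.112% ± 0.00371, amacrine cell genes 0.0863% ± 0.0510 and Müller glia genes 0.722% ± 0.359. Cone genes took 0.359% ± 0.0658. Lens genes (0.203% ± 0.210) and horizontal cell genes (0.159% ± 0.145) exceeded ganglion cell genes on average, but by library in GFP 2 only. The order of ganglion, bipolar and amacrine cells thus depends on the measure. The label of ganglion cells is met by some of their markers and not by the makeup as a whole, so the cells are called picks here. In pooled cells, fewer cells of a type and less RNA per cell cannot be told apart.

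Axon and synapse genes led the ganglion cell list. Nefm, a neurofilament subunit of the axon skeleton, had 647, 223 and 298 CPM (389 ± 227, n = 3), with GFP 1 well above both others. Nefl, the light neurofilament subunit, had 366, 174 and 224 CPM in the same order. The 2 gene models overlap over 32.8% of the exons of Nefl, so part of their reads may be shared. Stmn2, a microtubule regulator of growing axons, had 274, 92.6 and 106 CPM and was again highest in GFP 1. Slc17a6, the vesicular glutamate transporter of ganglion cells, had 142, 133 and 157 CPM, and Tubb3, neuronal beta-tubulin, had 136, 103 and 85.7 CPM. Slc17a6 was the most even of these markers, with a range of 1.18-fold, and Sncg (gamma-synuclein), with 109, 56.7 and 106 CPM, was lowest in GFP 2. Of the 13 ganglion cell genes past 10 CPM, 7 were highest in GFP 1, 5 in GFP 3 and 1 in GFP 2, against 30.3, 39.6 and 30.2% of all genes. None was uneven, against 9.70% of all genes, which for 13 genes is a small difference.

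The factors that define ganglion cell identity were low. Thy1, the target of the beads, had 31.8, 9.74 and 14.7 CPM. Rbpms, an RNA-binding protein used as the standard marker of these cells, had 12.1, 14.0 and 25.2 CPM. Pou4f1 (Brn3a), a ganglion cell transcription factor, had 2.05, 4.73 and 9.03 CPM from 12, 33 and 57 counts. Pou4f2 (Brn3b) was read in GFP 2 only, with 0, 26 and 0 counts, Isl2 in GFP 3 only (0, 0 and 20 counts) and Atoh7 in GFP 2 only (0, 15 and 0 counts). At a depth where 3 counts are about 0.5 CPM, a gene of this level can be missed in a pool of few cells, so a 0 does not show absence. Of the 21 genes, 15 had at least 10 counts in every library.

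**Figure D1:**
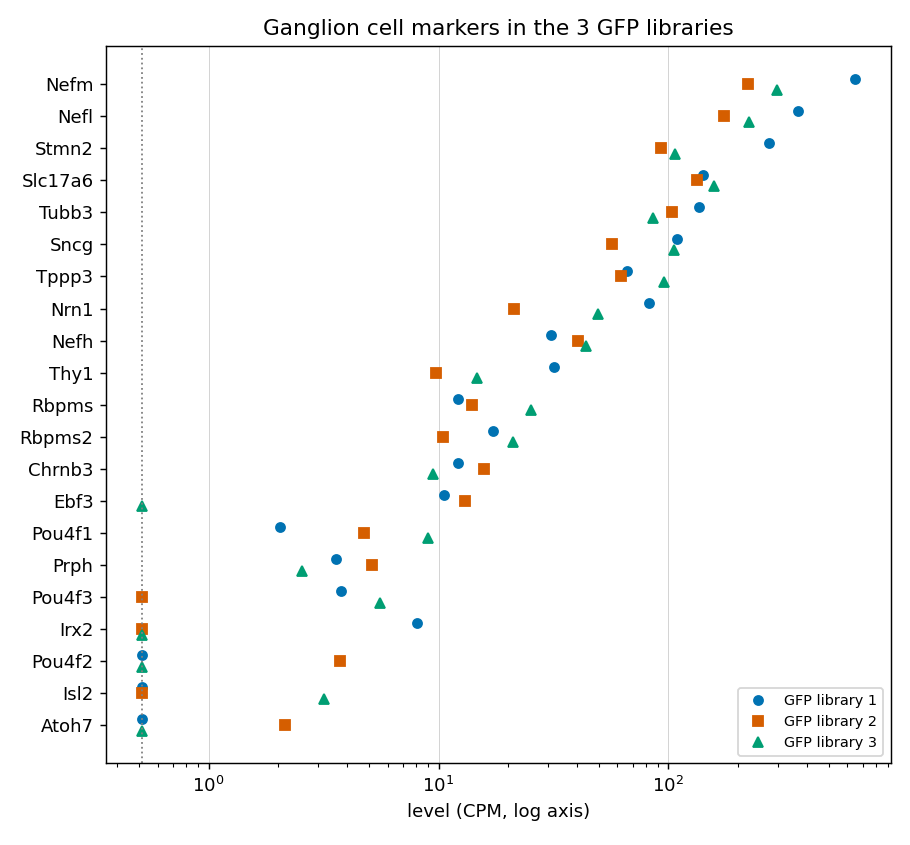
Level of each of the 21 ganglion cell genes in CPM (log axis) in GFP libraries 1, 2 and 3, drawn at the dotted line of 0.512 CPM where a library had fewer than 3 counts. The neurofilament genes Nefm and Nefl lie above 100 CPM in all 3 libraries, while the transcription factors Pou4f1, Pou4f2 and Isl2 lie below 10 CPM or at the line.

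Among genes past a mean of 10 CPM, those that tell ganglion cell types apart were more often uneven than the shared markers. Of the 15 type genes 8 passed and 5 of these were uneven, against 9.70% of all genes and none of the shared markers that passed. Shared markers read in a single library, such as Pou4f2 and Isl2, were under 10 CPM and were not counted. Type genes could pass through 1 library alone, as Spp1 did in GFP 2 and Eomes in GFP 1. The difference between the 2 lists is therefore not independent of the filter. Spp1 (osteopontin), which marks alpha ganglion cells but is also made by macrophages, had 7.86, 121 and 0 CPM and was 15.4-fold higher in GFP 2 than in the next library. Penk, the precursor of enkephalins, had 105, 2.44 and 342 CPM and was low in GFP 2. Tac1, the precursor of substance P, had 77.9, 145 and 1.74 CPM and was low in GFP 3. Eomes (Tbr2), a factor of melanopsin-containing ganglion cells that is also found in some amacrine cells, had 35.5, 5.16 and 7.61 CPM and was highest in GFP 1. Foxp2 was read in GFP 3 only, with 0, 0 and 89 counts, and Opn4 (melanopsin) had 23, 14 and 0 counts. Kcng4, a potassium channel subunit of alpha cells, had 19.5, 38.5 and 9.03 CPM, and Cartpt, a peptide of direction-selective ganglion cells, had 25.1, 32.7 and 58.0 CPM. Tbx20 had no count in any library.

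Bipolar, amacrine and horizontal cell genes behaved differently between libraries. The 20 bipolar cell genes were the most even of the inner retinal lists, with 1102, 1093 and 1161 CPM, and which library was highest changed with the scaling factors. Trpm1, the cation channel opened by light in ON bipolar cells, had 289, 316 and 322 CPM, and Cabp5, a calcium-binding protein of bipolar cells, had 69.2, 76.9 and 68.0 CPM. Pcp2, a G-protein modulator of ON bipolar cells, had 73.1, 89.8 and 82.6 CPM, of which part may belong to the overlapping gene Pet100. The exception was Vsx1, a factor of cone bipolar cells, with 69, 1 and 178 counts.

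The sum of the amacrine cell genes was highest in GFP 1, with 1408, 784 and 398 CPM. Of the 9 genes past 10 CPM, 7 were highest in GFP 1 and 2 in GFP 2, against 30.3 and 30.2% of all genes. Gad1, an enzyme that makes the transmitter GABA, had 243, 75.1 and 43.7 CPM, and its partner Gad2 had 54.7, 5.44 and 20.3 CPM. C1ql2, a synapse-organising secreted protein, had 85.8, 10.7 and 5.55 CPM and was 7.98-fold higher in GFP 1 than in the next library. The related C1ql1 had 342, 221 and 32.6 CPM and was low in GFP 3 instead. Slc6a9, the glycine transporter of glycinergic amacrine cells, ran the other way with 22.5, 40.1 and 37.4 CPM. The 5 defining markers summed to 402, 236 and 125 CPM, but Tfap2a and Tfap2b among them were together highest in GFP 2. Chat, the marker of starburst amacrine cells, had 24, 0 and 2 counts. Of the 9 genes, 6 were uneven, against 9.70% of all genes.

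The sum of the horizontal cell genes was highest in GFP 2 and lowest in GFP 3, a range of 13.5-fold. The 7 genes summed to 1412, 3121 and 232 CPM, most of it from Calb1 and Septin4. Calb1 (calbindin), abundant in horizontal cells of the mouse, had 882, 2049 and 59.7 CPM, and Septin4, a cytoskeletal GTPase, had 293, 741 and 81.5 CPM. Lhx1, the factor that places horizontal cells in their layer, had 18.6, 22.4 and 0 CPM, with no count in GFP 3. Onecut2, a factor of horizontal and ganglion cells, had 33.5, 92.3 and 11.7 CPM, while Onecut1, the remaining defining marker, stayed below 10 CPM. The number of horizontal cell genes that were uneven was 5 of the 6 past 10 CPM, against 9.70% of all genes. In GFP 2, 5 of the 6 were highest, where 30.2% of all genes were.

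Müller glia are the radial support cells of the retina, and their genes were highest in GFP 3. The 18 genes of the list found in the table summed to 5074, 5227 and 11362 CPM, and 16 of 18 were highest in GFP 3 (15 of 18 with TMM), where 39.6% of all genes were. Clu (clusterin) had 1857, 1344 and 3366 CPM and Apoe, the lipid carrier of glia, had 1285, 2063 and 2396 CPM. Crym, which binds thyroid hormone and is abundant in Müller glia, had 578, 619 and 2806 CPM, 4.53-fold higher in GFP 3 than in the next library. Rlbp1, which binds retinal in the visual cycle of Müller glia, had 218, 139 and 397 CPM, and the glutamate transporter Slc1a3 had 109, 88.1 and 379 CPM. Glul (glutamine synthetase) was even, with 105, 122 and 127 CPM. Gfap, the intermediate filament of astrocytes and of reactive Müller glia, had 143, 88.7 and 153 CPM, while Pax2, the factor of retinal astrocytes, had 1, 0 and 18 counts.

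The sums of the immune cell lists were highest in GFP 2. The 18 microglia and macrophage genes summed to 94.6, 870.2 and 359 CPM, and 7 of the 9 past 10 CPM were uneven, against 9.70% of all genes. A gene could pass through 1 library alone, as Ptprc did in GFP 2, so this count is not independent of the filter. The 5 defining markers of microglia and macrophages alone summed to 13.5, 29.4 and 44.8 CPM and were highest in GFP 3. Lyz2, lysozyme of macrophages and granulocytes, had 36.9, 505 and 89.2 CPM, and Ctss, a protease of antigen-presenting cells, had 2.90, 121 and 37.7 CPM. Ptprc (CD45), carried by all white blood cells, had 0, 256 and 1 counts. Markers of resident microglia had few counts: Tmem119 had none, P2ry12 had 9, 40 and 0 and Cx3cr1 had 6, 58 and 57, while C1qb, a complement component made by microglia, was highest in GFP 3 with 10.9, 13.3 and 58.3 CPM. T cell genes summed to 5.81, 94.1 and 56.7 CPM, lowest in GFP 1, while B and plasma cell genes summed to 35.5, 111 and 25.8 CPM and granulocyte genes to 3.42, 28.4 and 0 CPM, both lowest in GFP 3. Among T cell genes the costimulator Icos had 0, 195 and 25 counts.

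Lens transcripts had the widest range of the retinal and lens lists, 36.9-fold. The 21 lens genes summed to 1709.8, 4269 and 116 CPM, and all 12 past 10 CPM were uneven and highest in GFP 2 (9.70 and 30.2% of all genes). Of these 12, 11 were low in GFP 3, at most 0.25 times the lower of the other libraries. Bfsp2 passed through GFP 2 alone, so these counts are not independent of the filter. Cryaa, alpha-A crystallin, had 614, 1547 and 24.6 CPM, Crybb2, a beta crystallin, had 566, 1391 and 37.9 CPM and Cryba1, another beta crystallin, had 212, 544 and 19.7 CPM. Mip and Bfsp1, which are confined to lens fibres more strictly than crystallins, had 11, 55 and 0 and 11, 51 and 0 counts. Injured retina also makes crystallins, and their source was not tested.

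Vessel lists had a level from a few genes each. Endothelial genes summed to 101, 66.8 and 303 CPM, of which the VEGF receptor gene Kdr made 70.6, 44.4 and 255 CPM. Flt1, the gene of another VEGF receptor, had 8.20, 6.30 and 41.2 CPM and was 5.03-fold higher in GFP 3 than in the next library, while Pecam1, Cdh5 and Tie1 had no count. The pericyte list summed to 537, 889 and 854 CPM, of which the secreted protein gene Vtn alone made 518, 878 and 850.2 CPM. Rpe65 of the pigment epithelium had no count, and that list summed to 16.6, 16.5 and 9.19 CPM. Olig1, Olig2 and Sox10 of the oligodendrocyte list had no count either, but the whole list summed to 114, 155 and 132 CPM. Its 5 defining markers made 15.4, 17.2 and 6.97 CPM of this. Red blood cell genes summed to 10.4, 3.87 and 8.87 CPM, and fibroblast genes had 1 count in all.

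**Figure D2:**
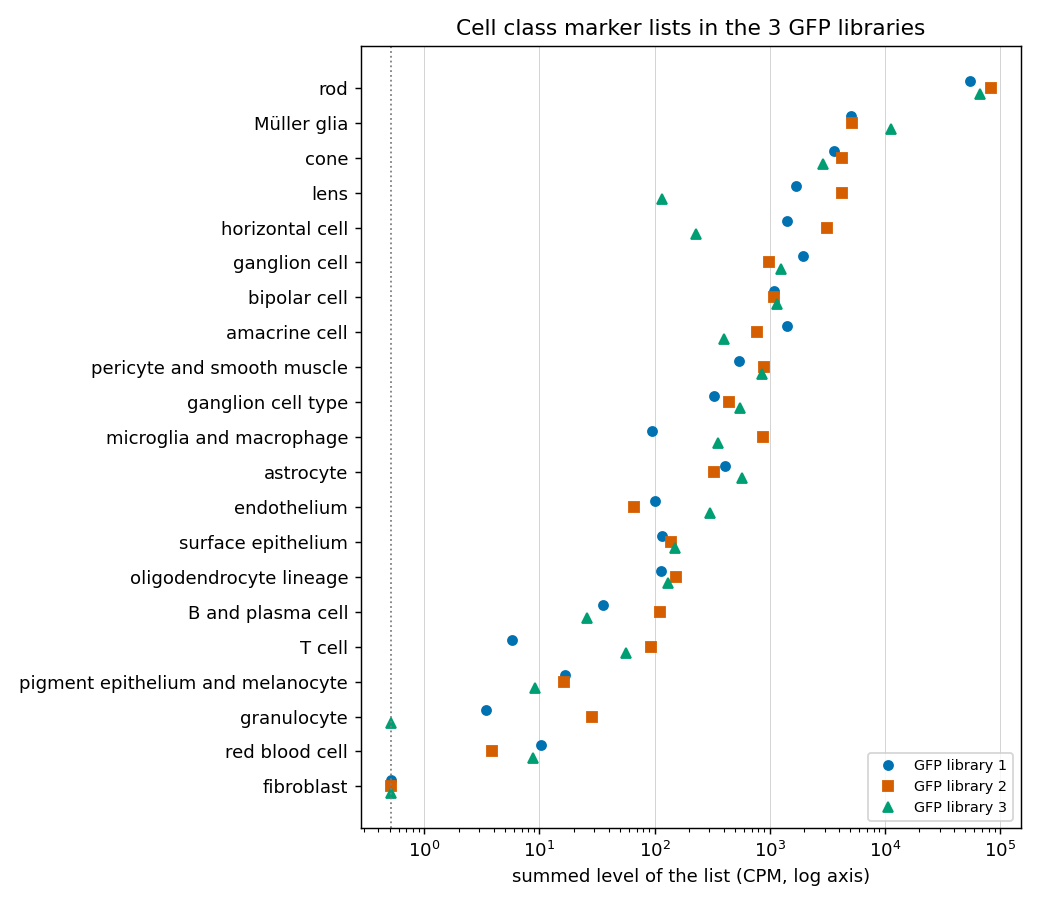
Summed level of each cell class list in CPM (log axis) in GFP libraries 1, 2 and 3, ordered by the mean; the dotted line marks 0.512 CPM, the level of 3 counts in GFP 1, and lower values are drawn on it. Rod genes lie between 54773 and 82928 CPM, ganglion cell genes between 986 and 1955 CPM, and the lens, horizontal cell, and microglia and macrophage lists range over 36.9-, 13.5- and 9.20-fold.

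The transcription factors of the axon injury response were present in all 3 libraries. The immediate early and AP-1 list of 14 genes summed to 1255, 1331 and 1526 CPM. None of the 9 genes past 10 CPM was uneven, a count that differs little from the 9.70% of all genes. Atf3, induced in neurons by axon injury, had 165, 107 and 248 CPM (174 ± 71.2, n = 3). Jun, the target of the DLK pathway, had 72.6, 93.6 and 121 CPM, and its partner Fos had 69.0, 86.8 and 188 CPM. Atf3, Fos and Jun were all highest in GFP 3. Junb had 233, 270.1 and 338 CPM and Jund had 480.0, 505 and 401 CPM, the last with reads that may in part belong to the overlapping gene Gm11175. All 3 libraries are from crushed nerves, so these levels cannot be set against an uninjured one.

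Genes linked to axon regrowth included some with a wide spread. Of 30 listed genes 18 passed 10 CPM and 4 of these were uneven, against 9.70% of all genes, and the sum was 1582, 1064 and 2159.7 CPM. Gap43, a growth cone protein, had 398, 81.5 and 351 CPM and was low in GFP 2. Gal, the neuropeptide galanin, had 9.40, 5.16 and 168 CPM and was 17.9-fold higher in GFP 3 than in the next library. Gal thus passed 10 CPM through GFP 3 alone. Sox11, a factor that promotes axon regrowth, had 36.4, 16.2 and 51.7 CPM, and Ecel1, an endopeptidase induced by nerve injury, had 28.5, 16.5 and 38.8 CPM. Both were lowest in GFP 2. Sprr1a, a small proline-rich protein of regenerating neurons, had 0, 17 and 71 counts. Adcyap1, the neuropeptide PACAP, had 58.1, 1.15 and 32.8 CPM and was low in GFP 2. Il6, Nts, Ucn and Csrp3 had no count. Gap43, Sox11, Ecel1 and Adcyap1 were lowest in GFP 2, as were Nefm, Nefl and Stmn2, while the highest library differed among them.

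The sums of the axon degeneration and death lists were close together, while single genes were not. All 14 genes of the DLK and SARM1 list passed 10 CPM, and their sum was 695, 711 and 716 CPM, with a highest library that changed with the scaling factors. Map3k12, the gene of DLK, had 179, 169 and 204 CPM, and Map3k13, the gene of the related kinase LZK, had 15.0, 19.8 and 13.9 CPM. Sarm1, the NAD-cleaving enzyme that drives axon breakdown, had 16.7, 48.7 and 36.4 CPM and was lowest in GFP 1. Nmnat2, the short-lived NAD-making enzyme that holds SARM1 inactive, had 19.1, 1.15 and 9.98 CPM and was low in GFP 2. Nmnat2, Nmnat3 and Map2k4 were the 3 uneven genes of these 14, against 9.70% of all genes, the last at 54.8, 52.3 and 13.6 CPM. The 15 death genes summed to 386, 361 and 323 CPM. Of these 11 passed, and only Bcl2l11 (Bim), a trigger of mitochondrial death signalling, was uneven, with 1.54, 27.7 and 8.87 CPM. Bax, which opens the outer mitochondrial membrane in dying cells, had 23.9, 22.5 and 24.6 CPM. The DLK-dependent triggers Bbc3 (Puma) and Hrk were low, with 38, 38 and 39 and 57, 12 and 30 counts.

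The integrated stress response, in which ATF4 and CHOP adjust metabolism to stress, was represented by 18 of 25 genes past 10 CPM. Of these 1 was uneven, a count that differs little from the 9.70% of all genes. Atf4 had 88.1, 133 and 128 CPM and Ddit3, the gene of CHOP, had 68.0, 53.6 and 42.5 CPM, with GFP 1 the lowest for Atf4 and the highest for Ddit3. Their target Chac1, which degrades glutathione, had 23.4, 58.0 and 16.5 CPM and was highest in GFP 2, as was Trib3 with 19, 130 and 27 counts. Nupr1, a stress-induced chromatin protein, had 223, 122 and 579 CPM and was the uneven member, highest in GFP 3. Heat shock genes were the most even injury list, with 5859, 5887 and 5798 CPM, led by the chaperone genes Hspa8 (2261, 2516 and 1981 CPM) and Hsp90aa1 (1875, 1619.8 and 2328 CPM). Metallothionein genes were few, with 50.7, 46.0 and 61.6 CPM for Mt1.

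**Figure D3:**
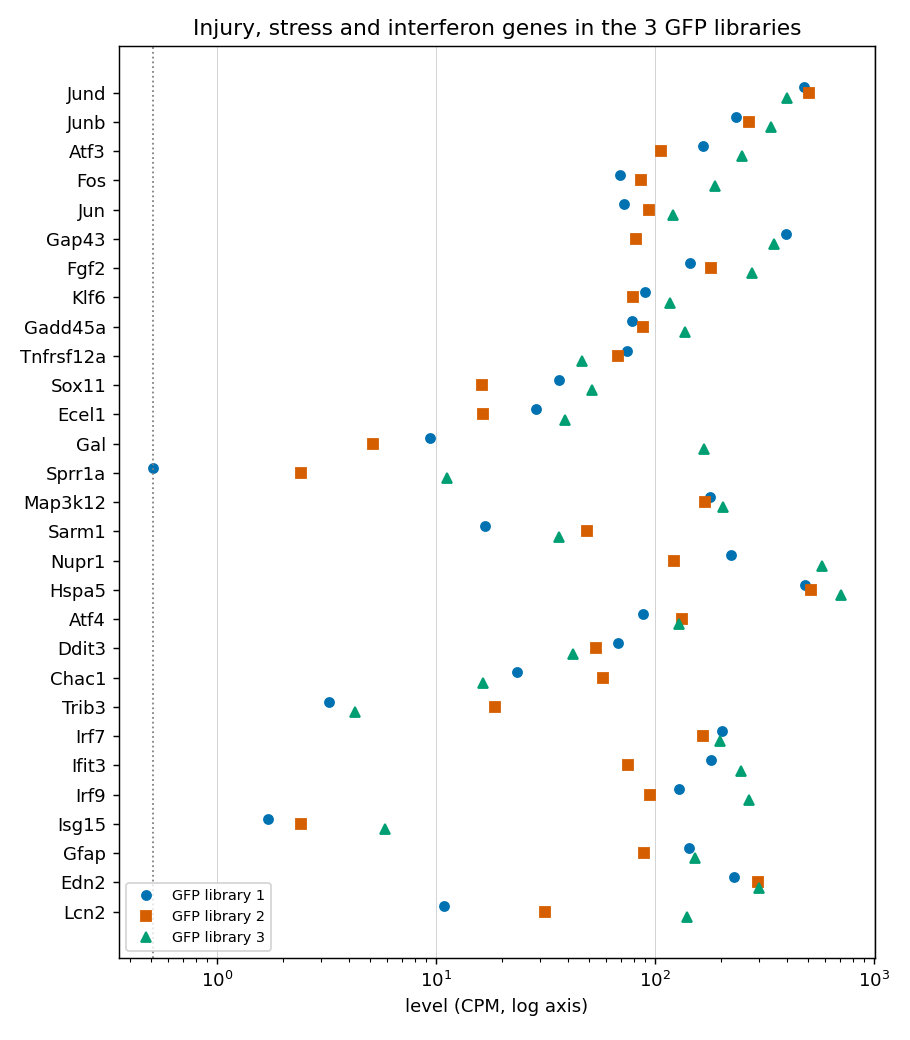
Levels of injury, stress, interferon and gliosis genes in CPM (log axis) in GFP libraries 1, 2 and 3, with fewer than 3 counts drawn at the dotted line. Jun, Junb, Map3k12 and Irf7 lie close together in the 3 libraries, while Gal, Lcn2 and Sprr1a lie highest in GFP 3.

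Gliosis genes were highest in the library that was also highest in glial markers, GFP 3. The 16 genes summed to 1350.0, 1716 and 2403 CPM, and 12 of the 15 past 10 CPM were highest in GFP 3, against 39.6% of all genes (11 of 15 with TMM). Vim, the filament vimentin of Müller glia, had 231, 332 and 645 CPM, Lgals3 (galectin of reactive glia and phagocytes) had 81.3, 144 and 292 CPM and Lcn2 (lipocalin 2) had 10.9, 31.5 and 140.4 CPM. Lcn2 was 4.45-fold higher in GFP 3 than in the next library. Edn2, an endothelin released by stressed photoreceptors, was nearly even with 229, 294 and 299 CPM, and Serpina3n, a protease inhibitor of reactive astrocytes, was lowest in GFP 3 with 137, 193 and 87.2 CPM. Vim and Gfap stand also in the glial lists, and Fgf2, Cd44 and Socs3 in the regrowth list. The summed Müller glia level beside these values was 5074, 5227 and 11362 CPM, and its part in them was not tested.

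Interferon response genes were lowest in GFP 2. Interferons bind cell-surface receptors and act through a complex that holds IRF9 on genes that hold the element ISRE. Of 25 listed genes 20 passed 10 CPM. The list summed to 3211, 2269 and 4079 CPM, and 17 of 20 were highest in GFP 3, against 39.6% of all genes, 3 in GFP 1 and none in GFP 2 (14, 6 and 0 with TMM). Irf7, a factor that amplifies the response, was even, with 203, 166 and 198 CPM. Irf9 had 129, 95.3 and 268 CPM, Ifit3, an antiviral protein, had 179.7, 75.5 and 248 CPM and Ifit1 had 81.0, 34.5 and 151 CPM. Gbp2, an interferon-induced GTPase, had 132, 12.9 and 61.8 CPM and was low in GFP 2. Isg15, a ubiquitin-like modifier, had 10, 17 and 37 counts, and Cxcl10 and Mx1 stayed below 10 CPM. The sums of microglia and macrophage genes beside these were 94.6, 870.2 and 359 CPM, and their part in the interferon levels was not tested.

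The element was read as GAAANNGAAA, which is the half-site GAAA repeated after 2 bases, on both strands. It was present in 12 of the 21 listed interferon genes with a promoter entry (57.1%) and in 3.99% of 27025 genes. The promoter of Ifit3 (chr19:34583279-34583578, plus strand) is shown because it holds 2 matches, in capitals and read on the other strand, and because Ifit3 has the most counts of the genes with a match:
Ifit3: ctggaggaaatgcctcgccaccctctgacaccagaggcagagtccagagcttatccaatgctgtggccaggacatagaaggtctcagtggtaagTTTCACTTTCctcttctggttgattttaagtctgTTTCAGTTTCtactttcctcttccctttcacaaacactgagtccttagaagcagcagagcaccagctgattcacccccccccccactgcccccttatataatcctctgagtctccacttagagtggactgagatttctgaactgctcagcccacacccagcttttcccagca

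Genes of cell division were far higher in GFP 3 than in the other libraries. The list summed to 269, 533 and 2169 CPM, a range of 8.06-fold. Of 28 genes 25 passed 10 CPM and 20 of these were uneven, against 9.70% of all genes. In GFP 3, 17 genes were at least 4 times the higher of the other libraries, where 1.20% of all genes were. The mean of 10 CPM includes GFP 3, so a gene can pass through its level there alone, as Aurkb did (0, 3.30 and 38.2 CPM). The count of 17 is therefore not independent of the filter and describes only the size of the difference. Mki67, the proliferation marker, had 2, 75 and 753 counts, that is 0.342, 10.7 and 119 CPM. Top2a, the topoisomerase that untangles chromosomes, had 2.05, 13.8 and 209 CPM, Cdc20, an activator of the anaphase complex, 0, 10.9 and 210.5 CPM and Ccnb1, cyclin B1, 0.171, 3.01 and 196 CPM. In GFP 3 they stood 11.1-, 15.2-, 19.3- and 65.2-fold above the next library, GFP 2.

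Of the listed genes, those that act in DNA replication were not among the 17 high in GFP 3. These are 9 genes (Pcna, Mcm2 to Mcm7, Rrm2 and Tyms), of which only 7 passed 10 CPM and could be called. Pcna, the clamp of DNA polymerase, had 119.6, 139.5 and 216 CPM and was highest in GFP 3, by less than 4-fold. Mcm5, part of the replicative helicase, had 14.7, 13.2 and 6.97 CPM and Mcm6 had 6.15, 29.8 and 7.29 CPM. Rrm2, which makes deoxynucleotides, had 0.342, 53.3 and 22.7 CPM and was highest in GFP 2. The 19 other genes include the 17 high ones, with Ccna2 (26.3, 42.0 and 91.1 CPM) and Bub1 (0, 0 and 148 counts, under 10 CPM on average) as the exceptions. In GFP 1, 10 of the 25 genes were at most 0.25 times the lower of the other libraries, where 1.22% of all genes were. All of these 10 but Rrm2 are also among the 17 high in GFP 3. The count of 10 is therefore not a separate result, nor independent of the filter. Replication and mitosis were divided by the known role of each gene after the values had been seen. Beside the cell cycle sums of 269, 533 and 2169 CPM, Müller glia genes had 5074, 5227 and 11362 CPM, highest in GFP 3 as well, and microglia and macrophage genes had 94.6, 870.2 and 359 CPM, highest in GFP 2. Whether the mitotic transcripts came from such cells was not tested.

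Many mitotic genes are switched through the element CHR, with the letters TTTGAA. It was present in 12 of the 23 listed cell cycle genes with a promoter entry (52.2%), against 20.2% of 27025 genes. Those of Top2a (chr11:99024140-99024439, minus strand) and Cdc20 (chr4:118437294-118437593, minus strand) are shown as the matching genes with the most counts, with matches on either strand in capitals:
Top2a: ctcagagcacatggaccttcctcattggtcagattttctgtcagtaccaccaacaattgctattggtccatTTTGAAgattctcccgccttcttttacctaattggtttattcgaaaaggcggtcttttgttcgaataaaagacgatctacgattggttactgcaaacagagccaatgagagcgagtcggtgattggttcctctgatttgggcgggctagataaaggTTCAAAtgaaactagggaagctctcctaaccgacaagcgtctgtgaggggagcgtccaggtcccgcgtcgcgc
Cdc20: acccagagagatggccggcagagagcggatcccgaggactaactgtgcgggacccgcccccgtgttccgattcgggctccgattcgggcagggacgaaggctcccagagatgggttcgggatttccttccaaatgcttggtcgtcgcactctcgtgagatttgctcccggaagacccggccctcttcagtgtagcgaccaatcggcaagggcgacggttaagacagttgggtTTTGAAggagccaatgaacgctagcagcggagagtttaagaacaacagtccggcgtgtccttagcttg
The 3 motifs were searched separately, and their letters do not contain one another.

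**Figure D4:**
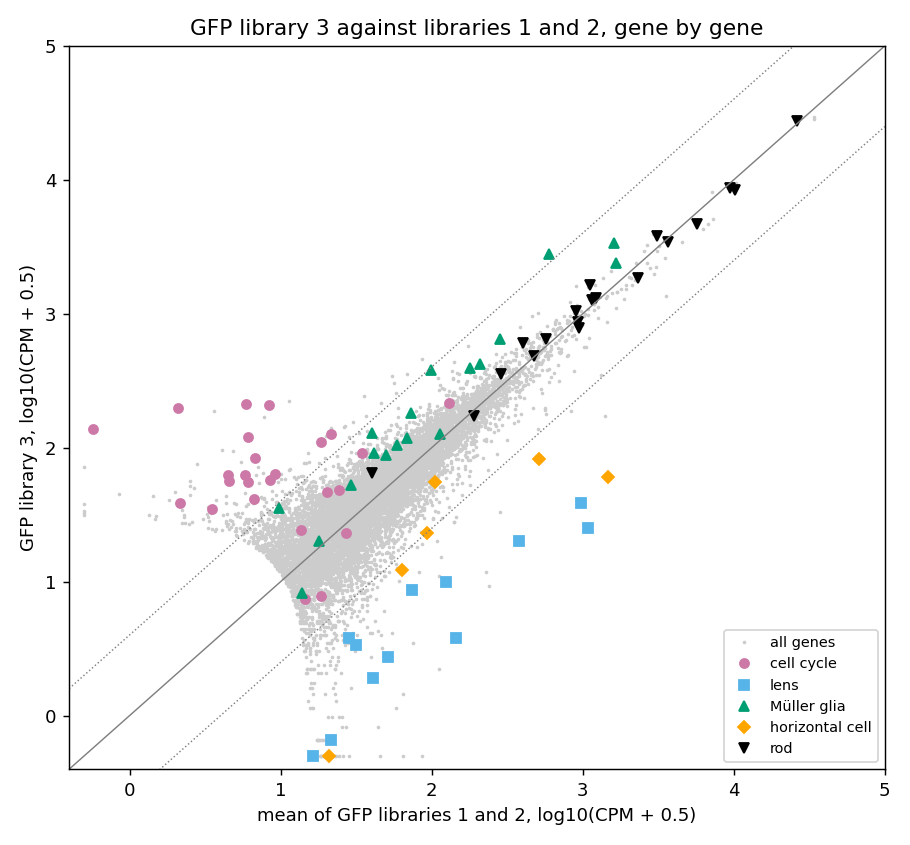
Each of the 10327 genes with a mean of at least 10 CPM, with its level in GFP 3 against the mean of GFP 1 and GFP 2, both as log10(CPM + 0.5); the solid line marks equal levels and the dotted lines a 4-fold difference. Most cell cycle genes lie above the upper dotted line, lens genes below the lower one, horizontal cell genes below the solid line, Müller glia genes mostly above the solid line, and rod genes near it.

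The size of the difference over all genes puts these lists in scale. The median gene had a range of 1.70-fold, and Pearson's r of log2 CPM over 10327 genes, which are not independent, was 0.850 for GFP 1 and 2, 0.784 for GFP 1 and 3 and 0.793 for GFP 2 and 3. In all, 1002 genes (9.70%) were uneven. Over these same 10327 genes, 368 were at least 4-fold apart between GFP 1 and 2, 616 between GFP 1 and 3 and 612 between GFP 2 and 3. With 1 library left out of the mean of 10 CPM as well, 326 of 10162 genes were uneven without GFP 3, 608 of 10279 without GFP 1 and 616 of 10365 without GFP 2. Genes at least 4 times the higher of the other libraries numbered 38 in GFP 1 (0.368%), 28 in GFP 2 (0.271%) and 124 in GFP 3 (1.20%).

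The 10 genes with the largest ratio of 1 library over the next differed between libraries. In GFP 1, Psd3, a postsynaptic exchange factor, had 49.2, 3.30 and 3.17 CPM, 14.9-fold above the next library, and Gabrb1, a GABA receptor subunit, had 30.1, 2.29 and 1.27 CPM. Cnr1, the cannabinoid receptor of inhibitory neurons, had 35.5, 2.15 and 3.49 CPM, Tac2, the precursor of neurokinin B, had 79.6, 1.58 and 9.03 CPM, and Vgf, a secreted neuropeptide precursor, had 48.7, 5.87 and 3.01 CPM. The others of the 10 were Stk32a, Stxbp6, Sox4, C1ql2 and Gbp4, with ratios from 7.92 to 9.97. Sox4 shares 54.6% of its exons with another gene model.

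In GFP 2 the 10 genes included several that are known from white blood cells. Acod1, which makes itaconate in activated macrophages, had 0, 39.7 and 0 CPM and was at least 77.4-fold higher than in the others, taking a floor of 3 counts per library. Hcar2, a receptor of activated myeloid cells, had 0, 37.7 and 0 CPM (at least 73.5-fold), and Clec4e, a receptor for damaged cells on macrophages, had 0, 31.9 and 0 CPM (at least 62.3-fold). Il1r2, the decoy receptor for interleukin 1, had 0, 37.3 and 4.75 CPM, and Ighm, the heavy chain of IgM, had 4.78, 40.1 and 3.33 CPM. Ptprc, Spp1, Icos and Sema4d belong to the same 10, as does the lens filament gene Bfsp2 with 6.49, 49.3 and 3.33 CPM. Genes for presenting antigen to T cells were shared with GFP 3 and low in GFP 1: H2-Ab1 had 17.6, 706 and 328 CPM and Cd74 29.0, 370.4 and 223 CPM. Il1b, the cytokine interleukin 1 beta, had 0, 78.9 and 25.5 CPM.

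In GFP 3 the 10 genes with the largest ratio included Cenpf and Ccnb1 of the cell cycle list. Cenpf, a kinetochore protein, had 0, 1 and 873 counts, Pimreg, a mitotic regulator, 0, 0 and 450 counts (at least 139-fold) and Nek2, a kinase of the centrosome, 0, 0 and 235 counts (at least 72.7-fold). Depdc1a, Sgo2a, Gtse1 and Ckap2, which also act in mitosis, belong to the same 10. Ccr2, the chemokine receptor of monocytes, had 0, 0 and 208 counts, and C3, the central complement component, had 0.854, 1.00 and 43.4 CPM.

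Genes that were low in 1 library add to this. At most 0.25 times the lower of the other libraries were 126 genes in GFP 1 (1.22%), 103 in GFP 2 (0.997%) and 175 in GFP 3 (1.69%), and this count was added after the values had been seen. In GFP 1 they included 10 cell cycle genes, Cd68, Ctss and Icos of the immune lists, Bcl2l11 and Rac2, a GTPase of blood cells, with 0, 45.6 and 42.5 CPM. In GFP 2 they included Lpl (lipoprotein lipase, 34.7, 0.573 and 39.8 CPM), Penk, Adcyap1, Gap43 and Nmnat2. In GFP 3 they included Cacna2d1, a calcium channel subunit of neurons, with 59.4, 56.6 and 0.634 CPM, Arhgap15, a GTPase-activating protein, with 78.1, 93.3 and 0 CPM, Tac1, Lhx1 and 11 lens genes. Rac2, Lpl, Cacna2d1, Arhgap15, H2-Ab1, Cd74 and Il1b were chosen after their values were seen.

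**Figure D5:**
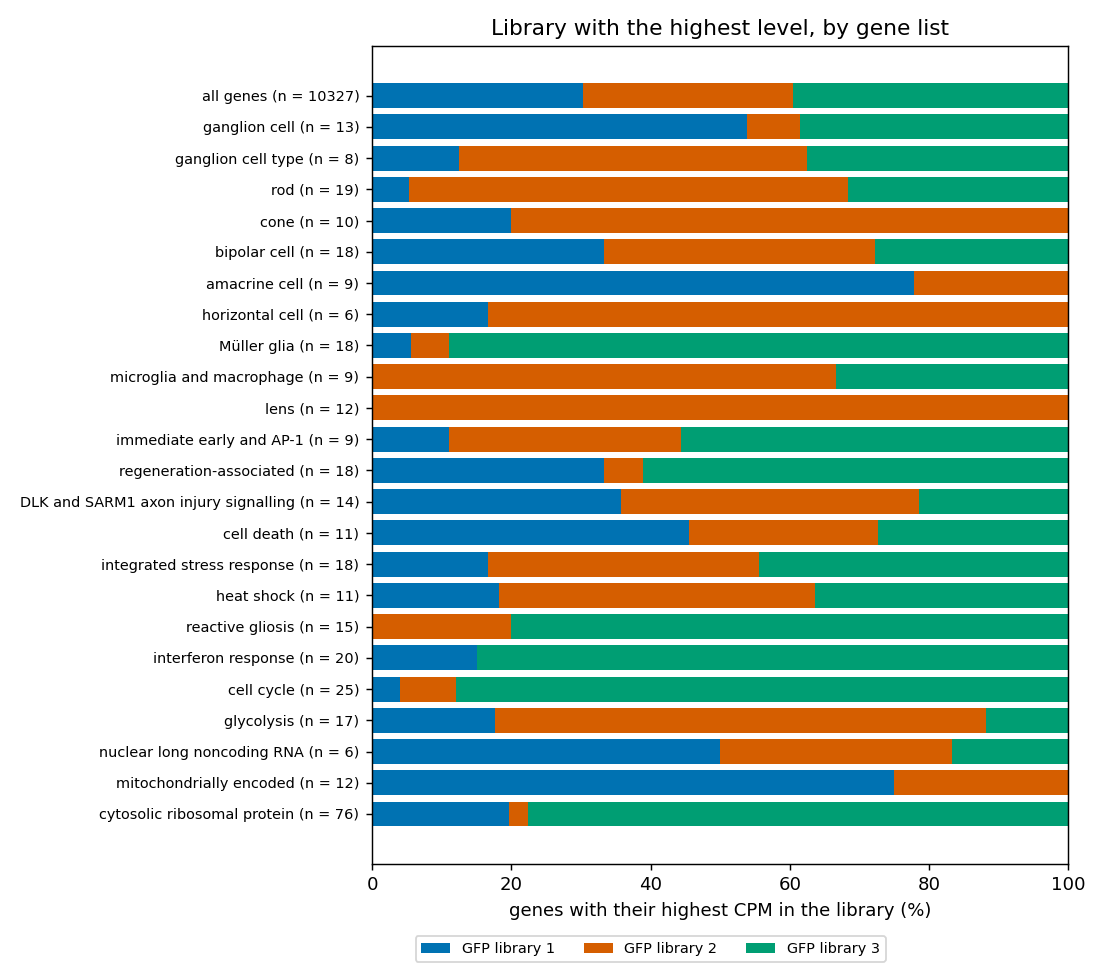
Share of the genes of each list (number past a mean of 10 CPM in brackets) whose highest CPM is in GFP 1, 2 or 3, with all 10327 genes in the top bar (30.3, 30.2 and 39.6%). The amacrine and mitochondrial lists are mostly highest in GFP 1, the rod, cone, horizontal cell, lens and glycolysis lists in GFP 2, and the Müller glia, gliosis, interferon, cell cycle and ribosomal protein lists in GFP 3.

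Metabolic and structural genes differed less between the libraries. The 17 glycolysis genes took 2.50, 3.21 and 2.42% of the counts, and 12 of 17 were highest in GFP 2, against 30.2% of all genes. None of the 17 was uneven, against 9.70% of all genes. Gapdh had 3355, 3714 and 2609 CPM and Ldha, which makes lactate, had 2305, 3620.0 and 1979 CPM. RNA encoded by mitochondria took 3.36, 2.78 and 2.27% and was highest in GFP 1, with mt-Co1, a subunit of cytochrome oxidase, at 6342, 6182 and 4309 CPM. The 87 ribosomal protein genes summed to 8955, 8297 and 11533 CPM, and none of the 76 past 10 CPM was uneven, against 9.70% of all genes. Of the 76, 59 were highest in GFP 3 (52 with TMM), against 39.6% of all genes. Nuclear noncoding RNA other than Malat1 was led by Meg3, an imprinted neuronal RNA, with 725, 297 and 348 CPM. Like Malat1 and the neurofilament genes, Meg3 was highest in GFP 1.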

How the data were processed

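A single deposited table gave raw counts for each gene of the 9 libraries. The submitters' processing notes name FastQC, HISAT2 and HTSeq, with the build mm10. Tool versions, read filters, annotation and strand were not given in the sources used here. Each column was mapped to a library by its name, and only the 3 GFP columns were used. All 50764 identifiers matched GENCODE M21, which gave coordinates (1-based), exon lengths and overlaps.

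From these counts CPM, TPM (Gm37376 left out), summed levels of 35 gene lists (597 of 598 genes in the table; Cyr61 was not matched) and counts of genes by fold were computed with Python 3.11.15 and pandas 2.3.3. Genes entered fold counts at a mean of 10 CPM over the libraries, which a gene can reach through 1 library alone. Counts under 3 were set to 3. Calls were tested on simulated data with counting noise only. The real libraries differ by more than that, so this check gives no rate of false calls between them. Scaling factors came from edgeR 4.0.16 (TMM) and DESeq2 1.42.0 (RLE); no test was run, since 1 group has no contrast. The 89 identifiers without a symbol held 0.0138 to 0.0165% of the counts.

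The libraries and lists were chosen with earlier results of these data known. Named genes are the 12 with most counts and with the highest TPM, the defining and up to 4 further members of each list, the 10 with the largest ratio per library and the listed members 4 times higher in 1 library; others were added after their values were seen, as were the counts of low genes, of highest libraries and the treatment of Gm37376. Some genes that this rule names are not reported here.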

Additional observations from a re-analysis of the deposited data

How the results depend on the processing

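With 3 libraries of 1 group, only sizes can be described. The count of 1002 uneven genes was 1011 with TMM and 1013 with RLE, but 90 of 4140 genes at a mean of 50 CPM, 6272 of 23208 with no filter and 3721 at a fold of 2. Leaving out 1 library, from the mean of 10 CPM too, gave 326 to 616 uneven genes, the fewest without GFP 3. Genes high in GFP 1, 2 and 3 numbered 0, 1 and 14 at a mean of 50 CPM and 287, 233 and 520 at a fold of 2, and 39, 32 and 106 with TMM. Most calls thus concern genes under 50 CPM. The rod share was 5.56% per length and 4.54% with Gm37376 in that total, and ran from 6.13 to 7.54% with 1 library left out; the ganglion cell share ran from 0.112 to 0.161%. Genes with at least 10 counts averaged 15054 ± 123, and 14899 after thinning every library to the smallest total. No paired analysis was possible because only 1 group enters.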

Other observations

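Some listed genes outside the cell classes and the injury program also differed between the 3 picks. Miat, a nuclear noncoding RNA, had 24.1, 0.716 and 19.5 CPM in GFP 1, 2 and 3 and was low in GFP 2, like Gap43 and Penk. Neat1, the RNA that builds paraspeckles, ran the other way, with 24.6, 97.3 and 70.2 CPM. Fgf2, a growth factor released by injured retina, had 144, 180.2 and 277 CPM, and Lgals1, a galectin of injured neurons and glia, had 33.3, 26.1 and 110 CPM, both highest in GFP 3. Krt18, a keratin of simple epithelia, was even at 116, 136 and 149 CPM, while Krt5 and Krt14 of surface epithelium had no count.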
